A study of Mus musculus with 50 samples.

Results

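Polycomb repressive complex 2 (PRC2) was followed through 9 of its subunits in the developing mouse frontal cortex. The genes were listed by name as Ezh2, Ezh1, Eed, Suz12, Jarid2, Aebp2, Phf1, Mtf2 and Phf19, and each was found by pairing the Ensembl identifiers of the count files with the symbols of mouse GENCODE release M21. All 9 are protein-coding genes and all 9 passed the filter on low counts, which left 16330 genes tested of 55487 in the files.

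PRC2 methylates a lysine in the tail of histone H3, a mark of genes held silent. Ezh2 and Ezh1 are its alternative catalytic subunits, Eed and Suz12 complete its core, and the core joins either Jarid2 and Aebp2 or a Polycomb-like protein, Phf1, Mtf2 or Phf19, which help to bring it to chromatin. In the developing cortex Ezh2 is known from neural progenitors, where its loss alters the timing of neuron production, and Ezh1 is known as the catalytic subunit of cells that no longer divide. Setd1a belongs to the opposing Trithorax family and methylates another lysine of histone H3 at active promoters.

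Polyadenylated RNA from frontal cortex was sequenced in 50 libraries, 1 per mouse, with 5 mice of each genotype, wild-type or Setd1a+/-, before birth at E14 and E18 and after it at P7, P35 and P70. Setd1a+/- mice carry 1 tm1d copy of Setd1a, a loss-of-function allele present in every cell and made from a knockout-first design, beside 1 intact copy. The labels give the strain as C57BL/6NTac in all groups, whereas the study's methods give a mixture of C57BL/6NTac and C57BL/6J, all animals as male, and the embryos as older by part of a day than the labels state. The methods also name the dissected tissue as frontal brain regions in embryos and as frontal cortex after birth. The part of this in the step from E18 to P7 was not tested. Total counts per library ranged from 35507165 to 43907318. Levels below are in RPKM, counts scaled to a common library size and divided by exon length in kilobases, so that genes of different length can be compared.

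Setd1a itself could not serve as a check of the genotype labels. Its counts were taken over all of its exons together, so any part lost from the tm1d copy was not read apart. Of its exon bases, 52.3% are shared with other annotated genes, mainly Gm49388, where a fragment was counted for each gene. At E14, Setd1a stood at 18.99, 19.1, 20.1, 17.5 and 17.5 RPKM in wild-type replicates 1 to 5 and at 22.1, 20.1, 18.8, 20.6 and 19.1 RPKM in Setd1a+/- replicates 1 to 5. With age as a covariate it was higher in Setd1a+/- mice by 0.10 on the log2 scale (SE 0.025, adjusted p = 0.00675, edgeR quasi-likelihood test with Benjamini-Hochberg adjustment over 16330 genes). Within single ages the estimate ran from 0.19 at E18 to −0.03 at P70, so the direction did not hold at P70.

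A few libraries stood apart from their groups. Xist, a gene of the inactive X chromosome, had 60159 counts in E14 wild-type replicate 5 and 55644 in E18 wild-type replicate 2, against at most 27 in each of the others. The same libraries had 0 and 11 counts over 4 genes of the Y chromosome, against at least 4711 in each of the others, so they go against the study's statement that all animals were male. Wild-type replicate 2 at P7 differed most from its group over all tested genes, with an SD of its log2 deviations of 0.55 against a median of 0.25 over all libraries, followed by Setd1a+/- replicate 2 at E14 with 0.48. Values without P7 wild-type replicate 2 are given beside the PRC2 results that it moved most.

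At E14 the PRC2 genes ranked, by mean RPKM over 10 libraries, as Ezh2 at 30.4, Suz12 at 23.3, Mtf2 at 17.8, Phf1 at 12.4, Eed at 10.7, Jarid2 at 10.48, Aebp2 at 6.90, Ezh1 at 3.88 and Phf19 at 1.92. Neighbours in that order overlapped in range for Ezh2 and Suz12, for Mtf2 and Phf1, for Phf1 and Eed, and for Eed and Jarid2. By P70 the order was Phf1 at 13.7, Ezh1 at 8.94, Mtf2 at 8.26, Aebp2 at 8.24, Suz12 at 8.22, Jarid2 at 4.27, Eed at 3.96, Ezh2 at 0.841 and Phf19 at 0.203 RPKM. There Ezh1, Mtf2, Aebp2 and Suz12 lay so close that each overlapped the next, as Jarid2 and Eed did. Ezh2 thus moved from the highest to the next to lowest place, and Ezh1 from the next to lowest to the second, between E14 and P70.

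**Figure D1:**
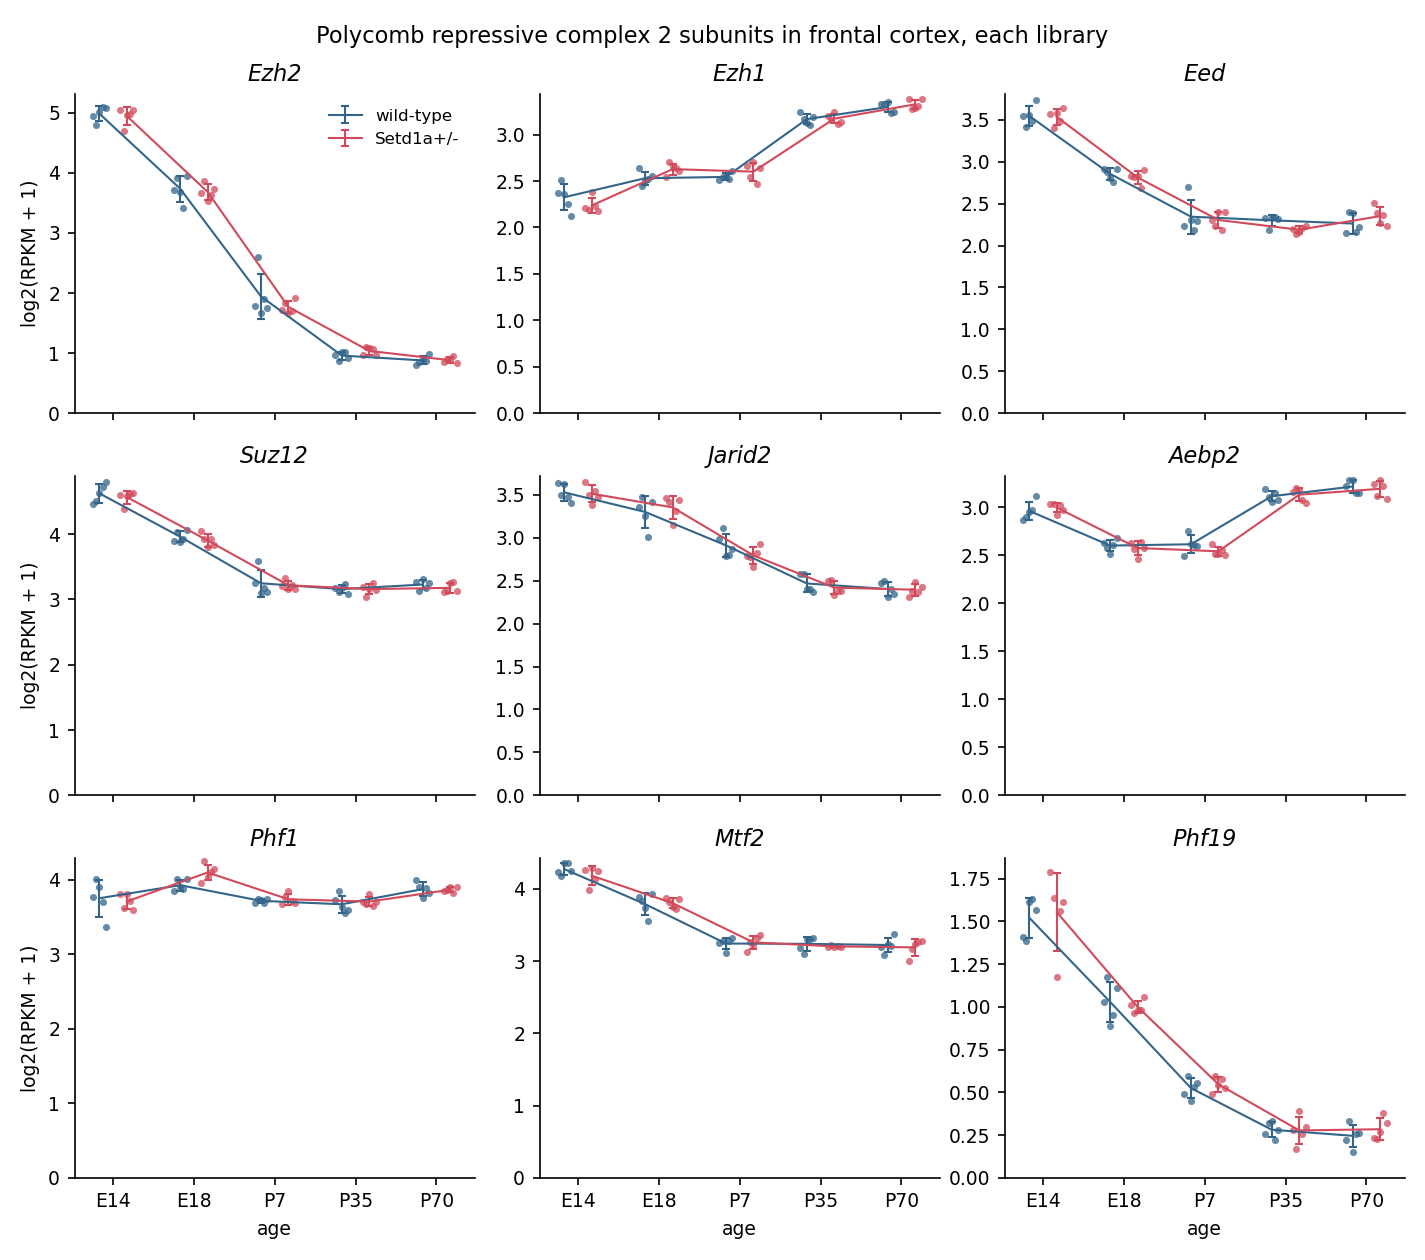
Level of each PRC2 gene as log2(RPKM + 1) by age, with 1 point per library, wild-type in blue and Setd1a+/- in red, and lines through the group means with SD (n = 5 per group). Ezh2 falls from a mean of 30.4 RPKM at E14 to 0.841 at P70 while Ezh1 climbs from 3.88 to 8.94.

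Ezh2 (ENSMUSG00000029687, chr6:47530139-47595341), the catalytic subunit of dividing cells, was the highest PRC2 gene at E14 and became 1 of the lowest after birth. In wild-type replicates 1 to 5 it measured 29.9, 26.95, 31.2, 33.2 and 33.0 RPKM at E14, and in Setd1a+/- replicates 1 to 5 it measured 32.1, 24.96, 30.2, 30.7 and 32.2. At E18 the wild-type values were 12.2, 14.2, 11.8, 9.69 and 14.4 RPKM and the Setd1a+/- values 11.7, 13.6, 10.51, 11.4 and 12.3. Every E18 library was below every E14 library. At P7 the wild-type libraries held 2.46, 5.09, 2.18, 2.74 and 2.35 RPKM and the Setd1a+/- libraries 2.27, 2.57, 2.19, 2.24 and 2.79. Replicate 2 of the wild-type group is the 1 high value, and even it lay below all libraries of E18. At P35 Ezh2 measured 0.961, 0.815, 1.03, 1.02 and 0.899 RPKM in wild-type and 0.955, 1.14, 1.12, 1.08 and 0.959 RPKM in Setd1a+/- libraries, and at P70 0.741, 0.7999, 0.858, 0.820 and 0.976 and 0.801, 0.859, 0.837, 0.937 and 0.780. The ranges of P35 and P70 overlap, whereas no P35 library reached the lowest P7 value.

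The mean of Ezh2 over both genotypes fell from 30.4 ± 2.64 RPKM (SD, n = 10) at E14 to 0.841 ± 0.0711 at P70, a 36.2-fold difference that left 2.76% of the E14 level. In log2 units, Ezh2 changed by −1.32 (SE 0.0906, adjusted p = 3.37e-17) from E14 to E18, by −2.18 (SE 0.0952, adjusted p = 3.14e-24) from E18 to P7 and by −1.43 (SE 0.10, adjusted p = 3.95e-17) from P7 to P35, all by the edgeR test over all genes. The step with the largest size was that around birth, from E18 to P7. Without wild-type replicate 2 at P7, that step was −2.33 and the next was −1.28. From P35 to P70 the estimate was −0.24 (SE 0.11, adjusted p = 0.143), which missed the threshold of 0.05, and without that same P7 library, whose spread enters the shared error, it was −0.24 with an adjusted p of 0.0235. In tissue RNA of this kind, fewer cells that express a gene and less RNA of it per cell cannot be told apart.

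Ezh1 (ENSMUSG00000006920, chr11:101191115-101226463), the other catalytic subunit, took the opposite course. It measured 4.16, 4.70, 4.15, 3.78 and 3.37 RPKM in the wild-type and 3.62, 3.57, 4.204, 3.69 and 3.52 RPKM in the Setd1a+/- libraries of E14, and 5.22, 4.45, 4.64, 4.74 and 4.86 and 4.82, 5.51, 5.27, 5.23 and 5.10 in those of E18. The 2 ages overlap only through the highest E14 value, wild-type replicate 2, and the lowest E18 values. At P7 Ezh1 stood at 4.70, 4.83, 4.85, 4.73 and 5.08 RPKM in wild-type and 5.31, 4.81, 5.50, 4.53 and 5.26 RPKM in Setd1a+/- libraries, within the span of E18. At P35 it reached 8.48, 8.02, 7.72, 7.602 and 8.11 RPKM in wild-type and 8.22, 7.92, 8.46, 7.68 and 7.82 RPKM in Setd1a+/- libraries, all above every P7 library. At P70 the values were 9.03, 9.09, 9.23, 8.41 and 8.45 RPKM and 9.41, 8.703, 8.73, 8.92 and 9.42 RPKM, with 8 of 10 libraries above the P35 range.

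Ezh1 rose by 0.36 (SE 0.0415, adjusted p = 1.51e-10) in log2 units from E14 to E18, by 0.69 (SE 0.0413, adjusted p = 1.21e-19) from P7 to P35 and by 0.16 (SE 0.0408, adjusted p = 0.00817) from P35 to P70. Between E18 and P7, while Ezh2 fell most, the estimate for Ezh1 was −0.01 (95% interval −0.09 to 0.08), and its sign turned with the size factors of DESeq2. From E14 to P70 its mean level grew 2.31-fold.

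The balance between the catalytic subunits turned over between E18 and P7. Ezh2 made up 88.6% ± 1.66, 70.8% ± 3.02, 34.6% ± 6.397, 11.1% ± 1.12 and 8.61% ± 0.877 (SD, n = 10 each) of the summed Ezh2 and Ezh1 level at the 5 ages in order. At P7 the share was at most 51.4%, in wild-type replicate 2, the 1 P7 library in which Ezh2 still exceeded Ezh1. The sum of both genes did not follow either of them. It was 34.3, 17.2, 7.65, 9.002 and 9.78 RPKM at the 5 ages in order, so that its lowest mean was at P7. These shares and sums are descriptions without a test.

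**Figure D2:**
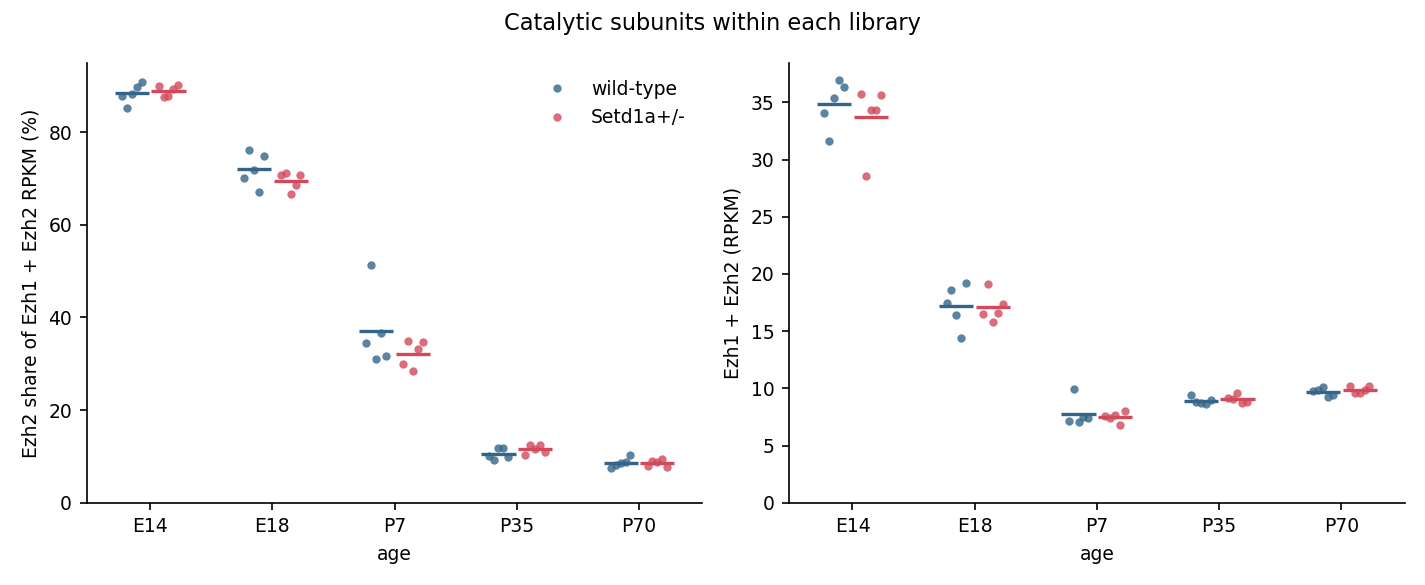
Left, the share of Ezh2 in the summed RPKM of Ezh1 and Ezh2 (%), and right, that sum (RPKM), by age, with 1 point per library and a bar at each group mean (n = 5), wild-type in blue and Setd1a+/- in red. The share drops from a mean of 88.6% at E14 to 8.61% at P70, and the sum is lowest at P7, at 7.65 RPKM.

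The promoters of Ezh2, Suz12, Phf19 and Ezh1, chosen after the values were seen, are shown because Ezh2 is a known target of E2F factors, which switch on genes for cell division. Windows from 250 bases before to 50 bases after the annotated start were taken from RefSeq on GRCm38.p6, where all 9 PRC2 genes were found, with 13 windows in all. They were searched for TTTGGCGC (GCGCCAAA on the other strand) and TTTCCCGC (GCGGGAAA) as 2 forms of the E2F motif, and for the CCAAT box (ATTGG). Among all 32851 promoter windows, 0.514% held the first form, 1.07% the other and 37.4% a CCAAT box. Among promoters of tested genes the shares were 0.812%, 1.71% and 37.1%. The E2F letters occur in the windows of 3 PRC2 genes, Ezh2, Suz12 and Phf19. They do not occur in those of the other 6, of which Eed, Jarid2 and Mtf2 were also lower at P70 than at E14. The windows lie at chr6:47594981-47595280 on the minus strand for Ezh2, chr11:79992856-79993155 on the plus strand for Suz12, chr2:34913927-34914226 on the minus strand for Phf19 and chr11:101226414-101226713 on the minus strand for Ezh1. Each is written 5′ to 3′ with these motifs in capitals.
Ezh2: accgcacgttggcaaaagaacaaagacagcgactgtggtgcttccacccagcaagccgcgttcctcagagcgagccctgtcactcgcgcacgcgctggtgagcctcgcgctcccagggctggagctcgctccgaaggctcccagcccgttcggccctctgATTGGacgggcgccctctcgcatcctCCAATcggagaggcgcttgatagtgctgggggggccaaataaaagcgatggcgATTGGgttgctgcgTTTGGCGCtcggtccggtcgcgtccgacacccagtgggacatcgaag
Suz12: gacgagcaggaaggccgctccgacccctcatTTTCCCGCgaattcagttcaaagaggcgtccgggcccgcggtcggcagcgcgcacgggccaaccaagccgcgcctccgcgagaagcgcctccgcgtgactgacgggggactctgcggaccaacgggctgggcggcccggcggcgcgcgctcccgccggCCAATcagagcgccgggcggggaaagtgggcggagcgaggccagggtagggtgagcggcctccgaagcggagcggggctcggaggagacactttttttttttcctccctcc
Phf19: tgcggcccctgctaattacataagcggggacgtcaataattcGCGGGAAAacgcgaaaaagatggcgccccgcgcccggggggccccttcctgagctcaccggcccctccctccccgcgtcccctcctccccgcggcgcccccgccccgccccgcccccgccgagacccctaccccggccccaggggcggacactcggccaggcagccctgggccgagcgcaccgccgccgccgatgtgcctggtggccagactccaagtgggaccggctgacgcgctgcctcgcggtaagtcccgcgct
Ezh1: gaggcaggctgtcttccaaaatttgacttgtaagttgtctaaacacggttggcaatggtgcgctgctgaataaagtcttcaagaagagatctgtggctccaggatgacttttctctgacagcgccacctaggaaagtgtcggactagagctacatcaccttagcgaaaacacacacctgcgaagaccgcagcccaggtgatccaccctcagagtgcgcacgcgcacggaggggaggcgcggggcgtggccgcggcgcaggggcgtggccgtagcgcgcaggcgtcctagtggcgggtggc
In Ezh2 the E2F letters begin at base 4 after the start, with 3 CCAAT boxes before it. In Suz12 they begin 219 bases before the start and in Phf19, on the other strand, 208 bases before it. A match describes the letters of the window, and binding was not measured.

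Eed (ENSMUSG00000030619, chr7:89954654-89980983), which reads the mark that PRC2 places, and Suz12 (ENSMUSG00000017548, chr11:79993106-80034123), the scaffold of the core, fell before and around birth and then levelled off. Suz12 averaged 23.3 ± 2.02, 14.3 ± 0.943, 8.44 ± 1.02, 7.94 ± 0.389 and 8.22 ± 0.469 RPKM (SD, n = 10 each) over the 5 ages in order. Eed averaged 10.7 ± 0.834, 6.14 ± 0.359, 4.04 ± 0.573, 3.75 ± 0.257 and 3.96 ± 0.407 RPKM (SD, n = 10 each) over the 5 ages in order. All 10 E18 libraries were below all 10 E14 libraries for both genes. The log2 changes of Suz12 were −0.70 (SE 0.0509, adjusted p = 1.95e-16) from E14 to E18 and −0.76 (SE 0.0515, adjusted p = 1.46e-17) from E18 to P7, and those of Eed were −0.80 (SE 0.0582, adjusted p = 2.48e-16) and −0.60 (SE 0.0590, adjusted p = 1.45e-12). At P7 wild-type replicate 2 was high for both, at 11.1 RPKM of Suz12 against 7.58 to 8.54 in the other wild-type libraries and at 5.50 RPKM of Eed against 3.56 to 3.94. Without it, the change from E18 to P7 was −0.82 for Suz12 and −0.67 for Eed. After P7 neither gene passed the test at either step. Their estimates from P7 to P35 were −0.09 for Suz12 and −0.11 for Eed, with adjusted p of 0.114 and 0.0919, and without that library they were −0.03 and −0.05, with adjusted p of 0.494 and 0.421. Eed shares 6.82% of its exon bases with another annotated gene, and Suz12 shares none.

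Jarid2 (ENSMUSG00000038518, chr13:44729474-44921643) and Aebp2 (ENSMUSG00000030232, chr6:140622663-140678472), which join the core together, parted ways after birth. Jarid2, a protein that guides PRC2 to its targets, averaged 10.48 ± 0.747, 9.07 ± 1.01, 6.24 ± 0.657, 4.44 ± 0.350 and 4.27 ± 0.255 RPKM (SD, n = 10 each) over the 5 ages in order. It fell at the first 3 steps, by log2 changes of −0.21 (SE 0.0559, adjusted p = 0.000937), −0.54 (SE 0.0563, adjusted p = 9.51e-12) and −0.49 (SE 0.0567, adjusted p = 1.85e-10). The ranges of E14 and E18 overlap, with 5 of 10 E18 libraries below the E14 range, and all P35 libraries were below all P7 libraries. Aebp2, a zinc finger protein that binds nucleosomes, averaged 6.90 ± 0.414, 5.03 ± 0.266, 4.99 ± 0.343, 7.73 ± 0.347 and 8.24 ± 0.474 RPKM (SD, n = 10 each) over the 5 ages in order. It changed by −0.46 (SE 0.0379, adjusted p = 1.30e-14) from E14 to E18, gave −0.01 (95% interval −0.09 to 0.06) from E18 to P7 with a sign that turned under the size factors of DESeq2, and rose by 0.63 (SE 0.0380, adjusted p = 1.50e-19) from P7 to P35. All 10 P35 libraries were above all 10 P7 libraries for Aebp2. Its share of the summed Jarid2 and Aebp2 level went through 39.8%, 35.8%, 44.5%, 63.5% and 65.8% at the 5 ages in order.

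The Polycomb-like genes Phf1 (ENSMUSG00000024193, chr17:26933052-26937908), Mtf2 (ENSMUSG00000029267, chr5:108065674-108109004) and Phf19 (ENSMUSG00000026873, chr2:34893757-34914026), whose proteins bind unmethylated CpG-rich DNA and methylated histone tails, differed in course although they fill the same place in the complex. Mtf2 averaged 17.8 ± 1.399, 12.9 ± 1.03, 8.54 ± 0.524, 8.34 ± 0.450 and 8.26 ± 0.657 RPKM (SD, n = 10 each) over the 5 ages in order. It changed by −0.46 (SE 0.0475, adjusted p = 9.11e-12) and −0.60 (SE 0.0479, adjusted p = 3.26e-15) in log2 units at the first steps and did not pass the test later. Its exons share 6.93% of their bases with Tmed5 on the opposite strand. Phf19 was the lowest PRC2 gene at every age, with ranges over the 5 ages in order of 1.26 to 2.45, 0.851 to 1.26, 0.368 to 0.511, 0.123 to 0.313 and 0.112 to 0.3003 RPKM. It rested on as few as 19 counts in a library, so that counting error matters for it. It changed by −0.91 (SE 0.12, adjusted p = 3.11e-09), −1.18 (SE 0.12, adjusted p = 7.09e-12) and −1.07 (SE 0.13, adjusted p = 7.39e-10) at the first 3 steps, to a mean 9.48-fold lower at P70 than at E14.

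Phf1 stayed within a narrow span and averaged 12.4 ± 1.62, 15.2 ± 1.43, 12.3 ± 0.506, 11.9 ± 0.813 and 13.7 ± 0.677 RPKM (SD, n = 10 each) over the 5 ages in order. It rose by 0.30 (SE 0.0520, adjusted p = 2.38e-06) from E14 to E18, fell by 0.31 (SE 0.0520, adjusted p = 1.03e-06) from E18 to P7 and rose by 0.19 (SE 0.0522, adjusted p = 0.0122) from P35 to P70. The ranges of neighbouring ages overlap at each of these steps. As the other Polycomb-like genes fell, the share of Phf1 in their summed level went from 38.5% at E14 to 61.8% at P70. Its exons share 39.3% of their bases with other annotated genes, mainly Cuta on the opposite strand, and because strand was not used, fragments of Cuta over those bases add to its counts. How much of its level they make up was not tested.

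Of the 9 PRC2 genes, 2 rose from E14 to E18, Ezh1 and Phf1, beside 36% of all tested genes, and 7 fell, beside 37.4%. From E18 to P7, 7 fell, beside 38.2% of all tested genes, and 0 rose, beside 37.9%. Ezh1 and Aebp2 passed neither the test of edgeR nor those of DESeq2 and limma-voom. In edgeR, 0 of the 9 PRC2 genes were higher at that step at an unadjusted p under 0.05. From P7 to P35, 2 rose, Ezh1 and Aebp2, beside 38.0% of all tested genes, and 3 fell, Ezh2, Jarid2 and Phf19, beside 38.1%, whereas scaling by library size alone called all 9, with Eed, Suz12, Phf1 and Mtf2 lower too. From P35 to P70, 2 rose, Ezh1 and Phf1, beside 5.00% of all tested genes. By edgeR, DESeq2 or limma-voom 0 fell, beside 4.74%, and Ezh2 was the 1 of the 9 lower at an unadjusted p under 0.05 in edgeR. The median log2 change of the 9 genes was −0.46 at the first step, −0.60 at the second, −0.09 at the third and 0.05 at the fourth, against medians between −0.0025 and 0.00085 over all tested genes. Most genes of the cortex changed over these ages, so the counts alone do not set PRC2 apart.

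**Figure D3:**
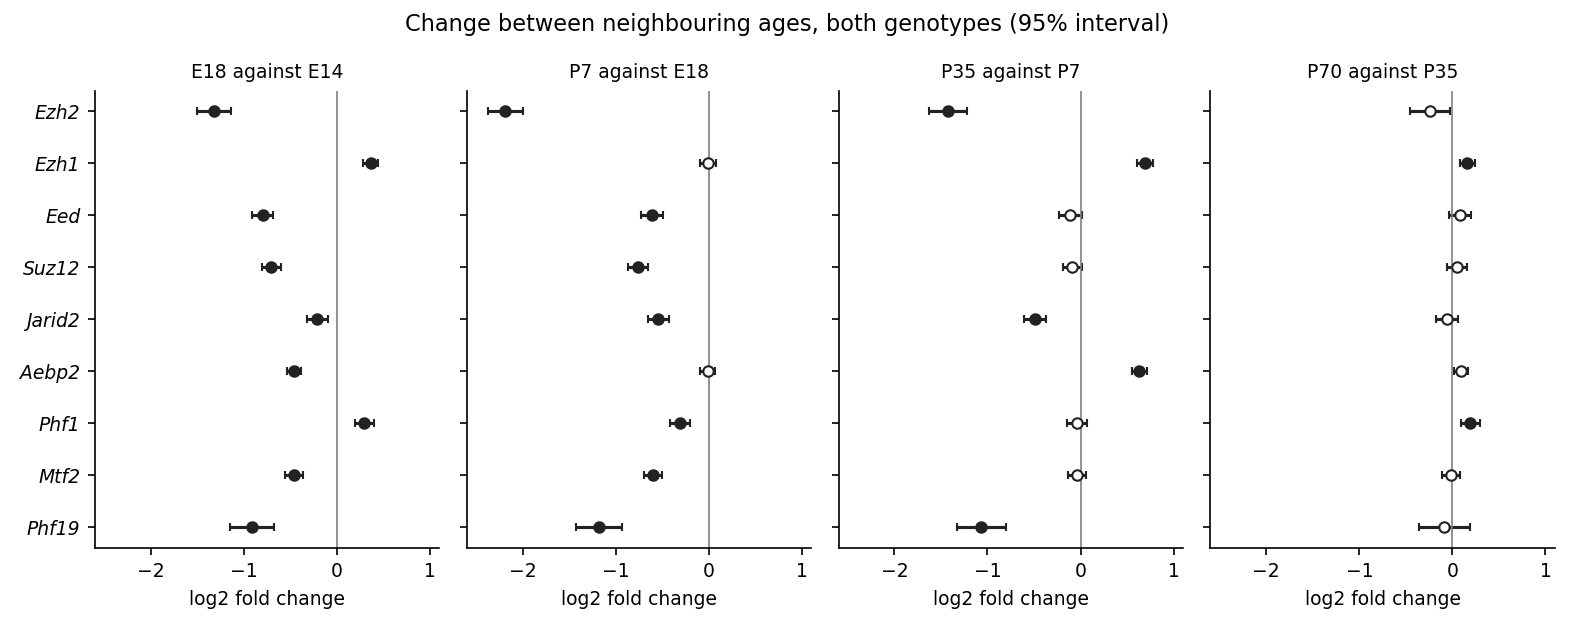
Log2 fold change of the 9 PRC2 genes between neighbouring ages over both genotypes (10 libraries per age), with 95% intervals, filled where the adjusted p was under 0.05. Ezh2 and Phf19 lie farthest to the left in the first 3 panels, and Ezh1 lies to the right of 0 in all but the second, where its sign turned with the size factors of DESeq2.

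The steps were also fitted in each genotype alone. The sign of the step was the same in wild-type and Setd1a+/- mice for 9 of 9 genes from E14 to E18, 7 from E18 to P7, 9 from P7 to P35 and 7 from P35 to P70. Without P7 wild-type replicate 2 it was the same for 9, 8, 7 and 7 of the genes at these steps. Both genotypes passed the test for 8 of 9 genes from E14 to E18, where Jarid2 did not in Setd1a+/- mice (adjusted p = 0.0522, or 0.0426 without that library, which makes it 9 of 9), and then for 7, 5 and 0, with or without it. With all libraries in, the widest gap was that of Ezh2 from P7 to P35, with −1.65 in wild-type and −1.20 in Setd1a+/- mice. Without that library the values were −1.36 and −1.20. The widest gap was then that of Eed from P35 to P70, with −0.04 in wild-type and 0.21 in Setd1a+/- mice. From E14 to E18, Ezh1 gave 0.25 (SE 0.0587) in wild-type and 0.48 (SE 0.0587) in Setd1a+/- mice, and Phf1 gave 0.17 (SE 0.0735) and 0.42 (SE 0.0736). The joint test of an age by genotype interaction called 0 of the 9 genes, beside 0% of all tested genes. Their unadjusted p in edgeR ranged from 0.0812, for Ezh1, to 0.968, so that 0 were under 0.05, and DESeq2 and limma-voom also called 0 of the 9. Over all genes, 0 were called by edgeR with 1098 at an unadjusted p under 0.05, 21 by DESeq2 and 0 by limma-voom.

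The comparison of genotypes asks whether PRC2 RNA differs when 1 copy of Setd1a is lost. With age as a covariate, 0 of the 9 PRC2 genes were called, beside 4.43% of all tested genes, and 0 had an unadjusted p under 0.05 in edgeR. DESeq2 and limma-voom called 0 of the 9 as well. The estimates ran from −0.06 for Ezh2 to 0.05 for Phf19 in log2 units, and the 95% intervals of all 9 lay between −0.18 and 0.20, so changes beyond that span in the average over ages lie outside the intervals. Without P7 wild-type replicate 2 the Ezh2 estimate was −0.00020 (adjusted p = 1.00), so the low end of the range rests on that library. For Ezh2 the interval was −0.18 to 0.06 and for Ezh1 −0.03 to 0.08. The median over the 9 genes was −0.03, against 0.0013 over all tested genes, and without that library it was −0.0068, against 0.0043.

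Within single ages, 0 of the 9 genes were called at E14 (beside 0.129% of all tested genes), E18 (0.110%), P7 (0.735%), P35 (0%) or P70 (0.233%), by edgeR, DESeq2 or limma-voom with all libraries in. At P35 edgeR called 0 genes of all tested, with 551 at an unadjusted p under 0.05, while DESeq2 called 11 and limma-voom 0. An unadjusted p under 0.05 in edgeR was seen for Phf1 at E18 and for Ezh2 at P7, and for 0 of the 9 genes at E14, P35 and P70. Phf1 at E18 measured 13.4, 15.1, 13.95, 13.7 and 15.1 RPKM in wild-type replicates 1 to 5 and 14.6, 17.99, 15.5, 16.2 and 16.6 RPKM in Setd1a+/- replicates 1 to 5. The lowest Setd1a+/- library, replicate 1, lay within the wild-type range and the other 4 above it, for a log2 difference of 0.18 (SE 0.0733, unadjusted p = 0.0161, adjusted p = 0.313). For Ezh2 at P7 the estimate was −0.30 (SE 0.13, unadjusted p = 0.0299, adjusted p = 0.464), and without wild-type replicate 2 it was −0.01 with an adjusted p of 1. That 1 library thus carries the difference.

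Ezh1 had estimates of opposite sign at the embryonic ages, −0.12 at E14 (95% interval −0.23 to 0.0030) and 0.12 at E18 (95% interval −0.00060 to 0.23). At E14, Setd1a+/- replicate 3 was the highest of its group at 4.204 RPKM and wild-type replicate 5 was the lowest of all 10 libraries at 3.37. When E14 wild-type replicate 5 was left out together with replicate 2 of the wild-type groups of E18 and P7, the E14 estimate was −0.18 with an adjusted p of 0.0468, and Ezh1 became the 1 PRC2 gene called there, among 1164 genes of all tested. Leaving out E14 wild-type replicate 5 alone gave −0.17 (adjusted p = 0.0609), and leaving out E14 wild-type replicate 2 alone gave −0.05 (adjusted p = 0.925). Over the other alternatives 0 of the 9 genes were called at E14. Phf19 at P70 had the widest interval, −0.17 to 0.62.

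**Figure D4:**
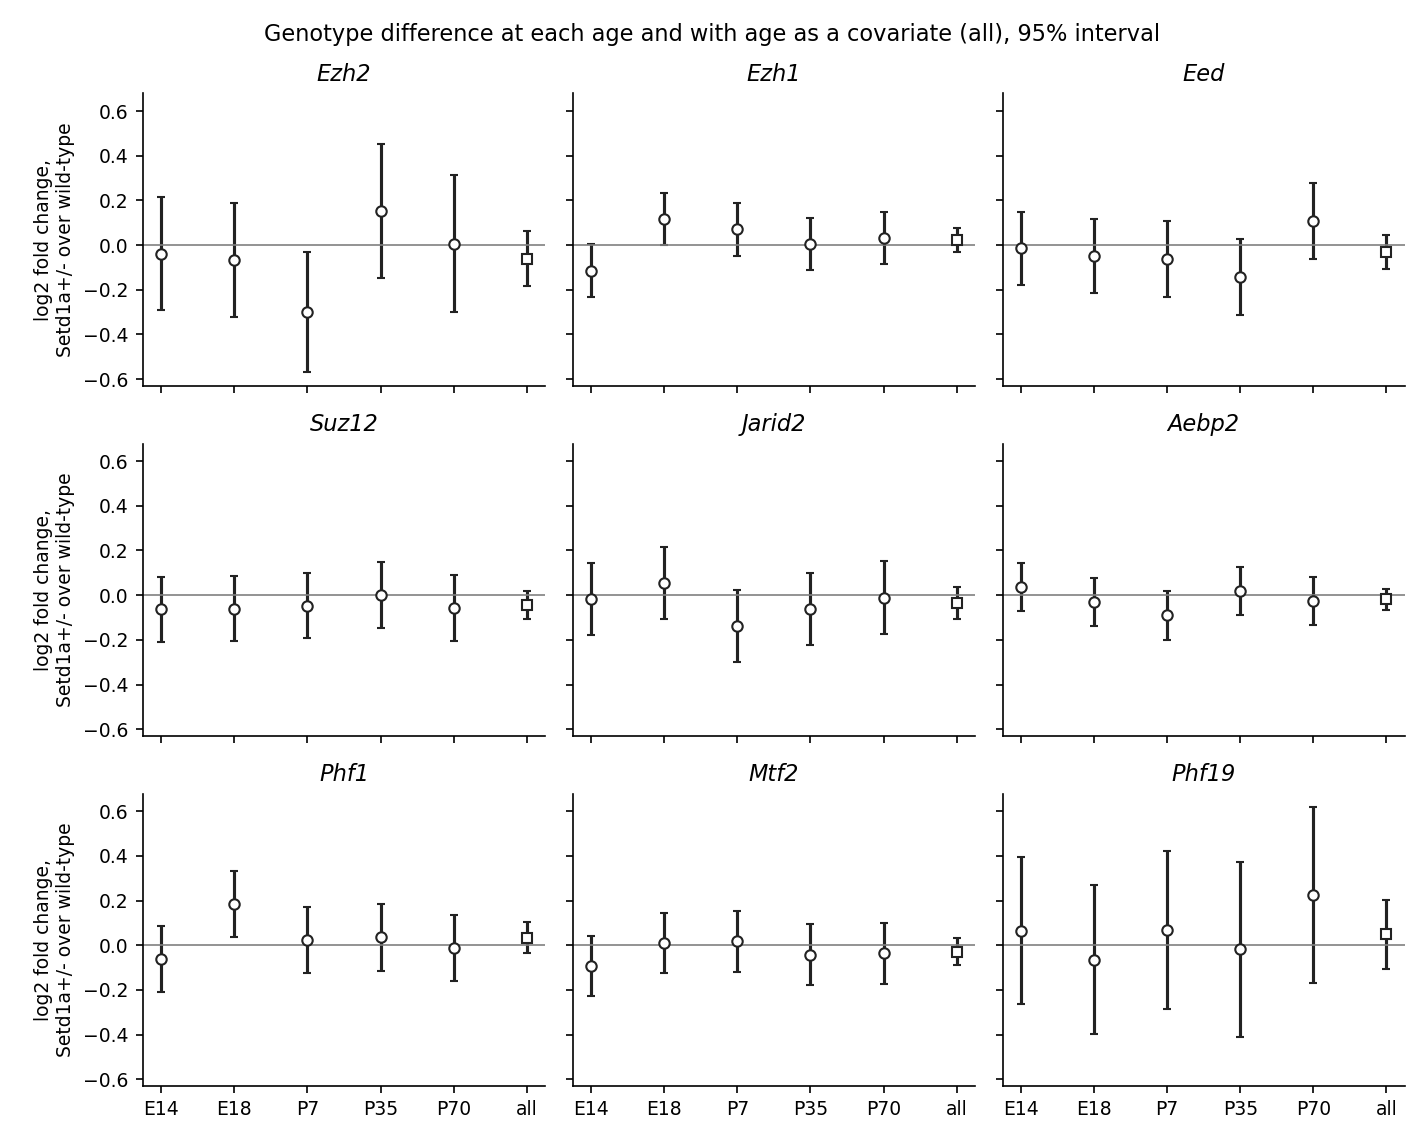
Log2 fold change of each PRC2 gene in Setd1a+/- over wild-type mice at each age (circles, 5 against 5 libraries) and with age as a covariate (squares, 25 against 25), with 95% intervals. The squares lie between −0.06 and 0.05, and the interval excludes 0, before adjustment, for Phf1 at E18 and Ezh2 at P7.

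The other genes of the Polycomb system were followed by lists, to be read against all tested genes, of which 36% rose and 37.4% fell from E14 to E18, 37.9% and 38.2% from E18 to P7, 38.0% and 38.1% from P7 to P35, and 5.00% and 4.74% from P35 to P70. Of 5 tested PRC2 partners outside the 9 genes, 5 fell from E14 to E18, 3 fell and 1 rose from E18 to P7, 2 fell and 1 rose from P7 to P35, and 1 fell and 1 rose from P35 to P70. Rbbp4, a histone-binding protein of the core, changed by −0.58 (SE 0.0400, adjusted p = 5.33e-17) and then by −0.74 (SE 0.0402, adjusted p = 6.68e-21), alongside Suz12 and Eed. Epop, an accessory protein that joins Polycomb-like forms of the complex, rose from a mean of 11.7 to 113 CPM (counts scaled to a common library size) from P7 to P35, a log2 change of 3.27 (SE 0.10, adjusted p = 1.21e-29). Rbbp7, a relative of Rbbp4, rose by 0.18 (SE 0.0342, adjusted p = 6.52e-06) from E18 to P7. By genotype, 0 of the 5 were called in any comparison by edgeR, with Lcor at E14 the 1 gene at an unadjusted p under 0.05.

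Polycomb repressive complex 1 binds the mark that PRC2 places. Of its 19 tested subunits, 2 rose and 11 fell from E14 to E18, 3 rose and 15 fell from E18 to P7, 8 rose (9 without P7 wild-type replicate 2) and 9 fell from P7 to P35, and 1 rose and 2 fell from P35 to P70. Among the subunits that carry the chromodomain, Cbx2 changed by −1.32 (SE 0.11, adjusted p = 5.55e-14) from E14 to E18, Cbx6 rose by 0.97 (SE 0.0412, adjusted p = 1.52e-24) from E18 to P7 and by 1.23 (SE 0.0413, adjusted p = 7.05e-29) from P7 to P35, and Cbx7 rose by 2.29 (SE 0.0649, adjusted p = 1.08e-31) from P7 to P35. Bmi1, a ring finger subunit known from stem cell renewal, changed by −1.10 (SE 0.0468, adjusted p = 1.28e-24) from E18 to P7, the step at which Ezh2 fell most. Kdm2b, which recruits a variant form of the complex to CpG islands, changed by −2.01 (SE 0.0486, adjusted p = 3.56e-34) from P7 to P35. In the comparisons of genotype 0 of the 19 were called by edgeR, with at most 3 in a comparison at an unadjusted p under 0.05, and the smallest adjusted p belonged to Ring1 at P7 (−0.22, SE 0.0614, adjusted p = 0.0838).

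Enzymes that act against the Polycomb marks also changed with age. Of 6 tested genes for the histone demethylases Kdm6a and Kdm6b and the deubiquitinase Bap1 with its Asxl partners, 1 rose and 5 fell from E14 to E18, 0 rose and 4 fell (5 without P7 wild-type replicate 2) from E18 to P7, 3 rose and 3 fell from P7 to P35, and 0 passed the edgeR test from P35 to P70, where 3 had an unadjusted p under 0.05. Kdm6b changed by −1.14 (SE 0.0973, adjusted p = 2.41e-14) from E18 to P7 and by −1.26 (SE 0.0987, adjusted p = 1.46e-15) from P7 to P35. Textbook targets of Polycomb repression were mostly low, with 9 of 10 under a mean of 1 CPM at each age and Sox17 the most abundant. Of the 10, Cdkn2a, Hoxa9, Hoxa10, Hoxd10, Hoxd13 and Gata4 did not reach the filter, with at most 12 counts of Cdkn2a, 1 of Hoxa9, 2 of Gata4 and 0 of the other 3 in any library. Of the 4 tested, Cdkn2b, a brake on the cell cycle, rose by 1.99 (SE 0.17, adjusted p = 3.82e-14) from E14 to E18, from 0.182 to 0.723 CPM, and T changed from P7 to P35 by −2.57 (SE 0.41, adjusted p = 3.47e-07), from 0.389 to 0.0620 CPM. Of the 4, 1 rose and 1 fell, T, from E14 to E18, and 1 rose, Cdkn2b, and 0 fell from E18 to P7. From P7 to P35, 0 rose and 1 fell, and from P35 to P70, 0 passed the edgeR test. By genotype 0 of the 6 enzymes and 0 of the 4 targets were called by edgeR, with at most 1 of each at an unadjusted p under 0.05 in a comparison.

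Markers of dividing cells also fell with age. All 10 markers of cycling cells fell at each of the first 3 steps, and 1 of 10, Top2a, fell from P35 to P70. Their median log2 change was −1.86, −1.40 and −2.53 at these 3 steps in order. Without P7 wild-type replicate 2 it was −1.86, −1.70 and −2.18, all 10 still fell at each, and 4 of 10 fell from P35 to P70. Their summed level over the 5 ages in order averaged 1434, 433, 175, 74.5 and 68.7 CPM, with Top2a the most abundant at E14 and E18 and Pcna after birth, and none at 0 in all libraries of an age. At P7 the sum was 135, 419, 147, 164.3 and 137 CPM in wild-type replicates 1 to 5 and at most 170 CPM in the Setd1a+/- libraries. Replicate 2 of the wild-type group is the high library here too, as it was for Ezh2, Eed and Suz12. Of 9 markers of radial glia and intermediate progenitors, 9 fell from E14 to E18, 7 fell and 1 rose from E18 to P7, and 6 fell (5 without that library) and 2 rose from P7 to P35, and their sum went from 1912 CPM at E14, with Vim the most abundant, to 149 at P70. Their part in the change of Ezh2 was not tested.

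**Figure D5:**
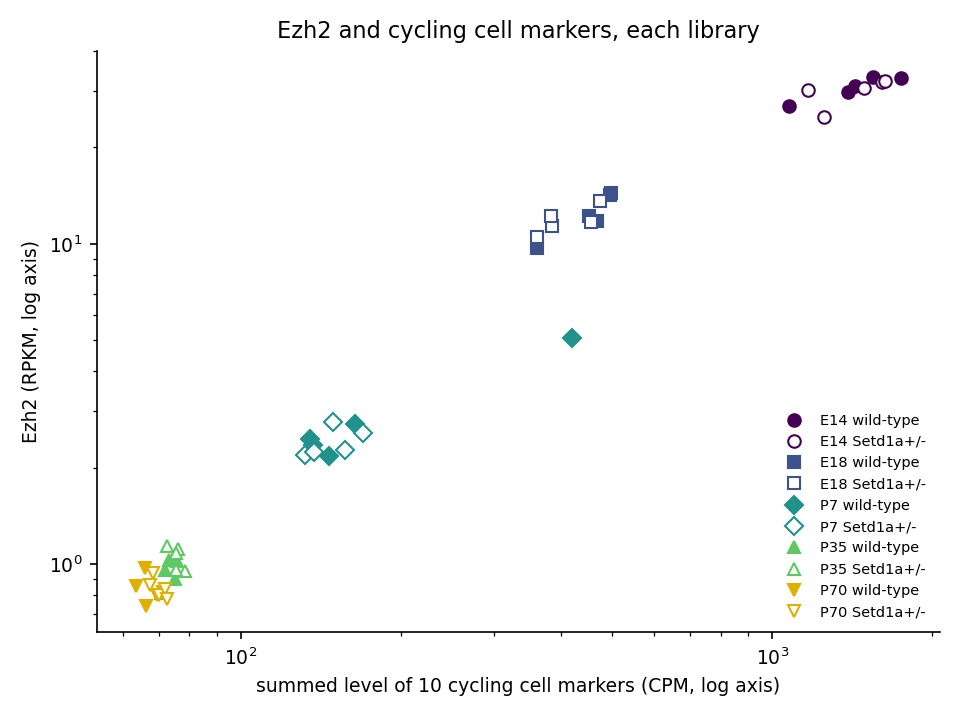
Ezh2 level (RPKM, log axis) against the summed level of 10 markers of cycling cells (CPM, log axis), with 1 point per library, colours and shapes for the ages, filled for wild-type and open for Setd1a+/-. The ages run from the upper right at E14 to the lower left at P70, and the wild-type P7 library at 419.1 CPM and 5.09 RPKM lies between the E18 and P7 libraries in level of Ezh2.

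Libraries were also compared within groups. After the mean of each age and genotype was taken off, Ezh2 and Mki67 had a Pearson r of 0.68 over 50 libraries, and of 0.43 over 49 without wild-type replicate 2 at P7. For Ezh2 and Top2a it was 0.68 and 0.44, for Ezh1 and Top2a −0.27 and −0.35, and for Ezh1 and Mki67 −0.13 and −0.17, over 50 and 49 libraries. Among the PRC2 genes, Ezh2 followed Suz12 with 0.70 over 50 libraries and 0.55 over 49, and Mtf2 with 0.52 and 0.63, the highest of the 8 without that library. Ezh1 followed Phf1 with 0.61 over 50 libraries and over 49. The P7 library left out deviated little for this pair, by −0.0026 for Ezh1 and 0.020 for Phf1 in log2 units. The libraries farthest from their group stayed in. They were E14 wild-type replicate 5 (−0.25 for Ezh1 and −0.42 for Phf1) and E14 wild-type replicate 2 (0.23 and 0.28). These are descriptions over libraries that share their scaling, with no test.

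Markers of other cells in frontal cortex moved on their own courses. Astrocyte markers rose in 6 of 6 at each of the first steps, from a sum of 169 CPM at E14 to 1134 at P7, with Slc1a2 the most abundant, and from P7 to P35 2 of 6 rose and 2 fell. Without P7 wild-type replicate 2, 5 of 6 rose from E18 to P7. Oligodendrocyte markers rose in 6 of 6 from P7 to P35, from 350 to 5664 CPM, with Mbp the most abundant, and without that library all 6 rose from a P7 sum of 224. All 4 microglia markers rose from E18 to P7 and from P7 to P35. Interneuron markers rose in 6 of 6 from P7 to P35. Both markers of oligodendrocyte precursors rose at the first steps and fell from P7 to P35. Endothelial markers rose in 1 of 3 from E14 to E18, erythroid markers fell in 5 of 5 at that step, and striatal markers, which a dissection can bring in, rose in 4 of 4 at it. From P7 to P35, the step where Ezh1 and Aebp2 rose, striatal markers rose in 4 of 4 and erythroid markers in 5 of 5 too. Of genes of cortical neurons, Snap25 (2.08), Slc17a7 (1.54), Syt1 (0.97) and Rbfox3 (0.62) rose at that step in log2 units, as did Tbr1, while Neurod6 fell, and Snap25 also rose from P35 to P70 (0.23). Erythroid markers then fell in 5 of 5 from P35 to P70, where 4.74% of all tested genes fell and where Ezh1 and Phf1 rose. Oligodendrocyte markers fell in 2 of 6 at that step, Cnp and Mog, and 0 rose. Of 3 choroid plexus markers, Ttr and Folr1 fell and 1 rose from E14 to E18. The part of any of these cells in the courses of the PRC2 genes was not tested.

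By genotype, markers were called at P7 alone, where 0.735% of all tested genes were called. There 3 of 6 oligodendrocyte markers, 1 of 6 interneuron markers, 1 of 9 progenitor markers and 1 of 3 choroid plexus markers were lower in Setd1a+/- libraries, and 0 of the markers of 7 other lists were called by edgeR. Wild-type replicate 2 at P7 held 1484 CPM of oligodendrocyte markers against 205.1 to 262 in the other wild-type libraries, and 608 CPM of choroid plexus markers, of which Ttr is the most abundant at P7, against 1.19 to 1.89. Without that library, 0 of these markers were called at P7, where the genes called went from 120 to 7 over all tested genes, and Ttr and Folr1 were called lower in Setd1a+/- libraries at E18, beside 0.3% of all tested genes. Its PRC2 genes were therefore measured in a sample whose marker make-up differs from that of its group, and the part of this in the P7 values was not tested.

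Genes were ranked by Pearson r of log2 CPM over 25 wild-type libraries, which compares the shape of a course and not the size of its change. The highest r to Ezh2 were those of Atad2b with 0.997, Cnot6 with 0.997 and Trim28, Rbmx and Poc1b with 0.996 each. Trim28 is a corepressor of transposable elements and Rbmx an RNA-binding protein. For Ezh1 they were Fam234b with 0.986, Mast3 with 0.983, Zbtb11 with 0.982, Rnf150 with 0.982 and Adcy9, an adenylyl cyclase, with 0.981. In the 25 Setd1a+/- libraries the same pairs gave 0.987 to 0.996 for Ezh2 and 0.963 to 0.980 for Ezh1. The sizes of change could differ widely. From E14 to P70 the mean level of Ezh2 went from 203 to 5.61 CPM, and that of Atad2b from 94.9 to 20.6 CPM. The mean of Ezh1 went from 28.8 to 66.5 CPM, that of Fam234b from 112 to 280 and that of Adcy9 from 9.98 to 80.7. Among the PRC2 genes themselves, Ezh2 had r of 0.98 with Phf19, 0.97 with Jarid2, 0.95 with Suz12 and −0.90 with Ezh1, and 0.11 with Phf1. The libraries share 5 ages, so these values describe the course over age and carry no test.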

How the data were processed

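RNA sequencing of frontal cortex was read in 50 libraries, 10 groups of 5. The authors trimmed reads with Trimmomatic, aligned them to GRCm38 with STAR and counted fragments on exons with featureCounts 1.4.6-p2 and Ensembl release 102, and the deposited values are these raw counts, without normalization or strand, a fragment over several genes counting for each. A filter on CPM, set at the value of 10 counts in a library of median size and required in at least 5 libraries, left 16330 protein-coding genes. After TMM scaling they were fitted by edgeR 4.0.16 quasi-likelihood (R 4.3.3), with Benjamini-Hochberg adjustment over all tested genes and a threshold of 0.05, for genotype with age as a covariate, genotype at each age, the interaction and neighbouring ages. RPKM divides TMM-scaled CPM by exon length. Log2 CPM used a prior count of 2. The fits were tested on simulated data. Alternatives were DESeq2 1.42.0, its size factors within edgeR, limma-voom (limma 3.58.1), library size only, other filters, RNA integrity as a covariate, a replicate block, and leaving out libraries singly and 3 together. Named genes are the 9 members and up to 4 genes with the smallest p per list and comparison. Also named are the 5 genes with the highest Pearson r to Ezh2 and to Ezh1. Members and lists were chosen with earlier results of these data known. Counts over 1 list of markers are not reported here. Python 3.11.15 and matplotlib 3.10.9 drew the figures. At these depths the number of mice limits precision more than counting, except near the filter.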

Additional observations from a re-analysis of the deposited data

Results flagged for a closer look

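In each of 90 groups (9 PRC2 genes in 10 groups of 5 libraries), the gap between the most extreme library and its nearest neighbour was divided by the range of the group, and a ratio above Dixon's 95% critical value of 0.71 marked the library. Chance marks about 1 in 20 groups, and 7 of the 90 were marked. Wild-type replicate 2 at P7 was high for Ezh2 at 5.09 RPKM (the others at 2.18 to 2.74), for Eed at 5.50 RPKM (3.56 to 3.94) and for Suz12 at 11.1 RPKM (7.58 to 8.54). Setd1a+/- replicate 2 at E14 was low for Ezh2 at 25 RPKM (30.2 to 32.2) and for Suz12 at 20 RPKM (23.1 to 23.8). Setd1a+/- replicate 3 at E14 was high for Ezh1 at 4.2 RPKM (3.52 to 3.69). Wild-type replicate 2 at P35 was low for Eed at 3.55 RPKM (3.99 to 4.05). What set these libraries apart was not tested.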

How the results depend on the processing

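All 23 steps of PRC2 genes that passed the test kept their direction and passed it in all 59 alternatives (1357 of 1357 values), 50 of which leave out 1 library. Of the 13 steps that did not pass, 745 of 767 values stayed on their side with the same sign. The exceptions follow, with causes not tested. From E18 to P7, Ezh1 turned to 0.028 with DESeq2's size factors, 0.028 with DESeq2, 0.031 with at least 10 CPM in 5 libraries and 0.0071 with RNA integrity as a covariate, and ran from −0.026 to 0.012 with 1 library left out, above 0 without wild-type replicate 1 or Setd1a+/- replicate 2 at E18 or Setd1a+/- replicates 2 or 4 at P7. Aebp2 at that step turned to 0.023, 0.023 and 0.027 with the first 3 of these, and ran from −0.040 to 0.0059, the latter without wild-type replicate 1 at P7. From P35 to P70, Mtf2 ran from −0.037 to 0.011 (above 0 without Setd1a+/- replicate 1 or wild-type replicate 2 at P70) and Phf19 from −0.16 to 0.0029 (above 0 without Setd1a+/- replicate 3 at P35). Library size only called 9 of the 9 genes from P7 to P35, where it moved the median of all genes to −0.08, and leaving out wild-type replicate 4 at P7 called 6, with Eed at −0.13 (adjusted p = 0.0412). From P35 to P70, Ezh2 passed the test at −0.24 without P7 wild-type replicate 2 (adjusted p = 0.0235) and without 3 libraries together (adjusted p = 0.0211).

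Without the 3 libraries together, Ezh2 by genotype turned to 0.018 and Eed to 0.0042, and 1 PRC2 gene was called at E14. PRC2 genes called by genotype were 0 in every other alternative. The numbers of all genes called by genotype moved more. At E14, 21 became 3 with library size only, 114 with DESeq2, 9 with 10 CPM and 1164 without the 3 libraries, and 1 (without wild-type replicate 1) to 740 (without wild-type replicate 5) with 1 library left out. At E18, 18 became 111 with DESeq2, 10 with limma-voom, 7 with 10 CPM, 1 with RNA integrity, 37 with the replicate block and 88 higher with 104 lower without the 3 (1.9e+02 in all), and 7 (without Setd1a+/- replicate 2) to 150 (without Setd1a+/- replicate 2 at E14). At P7, 120 became 16 with limma-voom, 68 with 10 CPM, 20 with the block and 9 without the 3, and 7 (without wild-type replicate 2) to 211 (without wild-type replicate 3). At P35, 0 became 2 with DESeq2's size factors, 11 with DESeq2, 1 with 10 CPM, 3 with the block and 5 without the 3, and 0 to 5 (without wild-type replicate 2 at P7). At P70, 38 became 77 with DESeq2 and 60 without the 3, and 8 to 101 without Setd1a+/- replicate 4 or 5. For the interaction, 0 became 21 with DESeq2, 3 with the block and 65 without the 3, and 0 to 5 (without wild-type replicate 5 at E14). The genes called lower were 17 of 21 at E14 (51 of 114 with DESeq2, 25 of 26 with limma-voom, 2 of 3 with library size only) and 11 of 18 at E18 (2 of 10 with limma-voom, 13 of 18 with library size only), and 774 of 1591 from P35 to P70 (1074 of 1742 with library size only). Replicate numbers were not taken to pair libraries in the main fits. Of 25 same-numbered pairs of an age, 9 correlated above 0.1 and 7 correlated best with their own number. Their r ran from −0.21 at P7 replicate 1 to 0.46 at E14 replicate 1. The study's methods name littermates after birth, and these correlations cannot settle whether the numbers mark them.

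RNA levels say nothing of protein or of the histone mark. Phf19 is low after P7, where its intervals are wide. Shared exon bases limit Phf1 and, less, Mtf2 and Eed. Each group holds 5 mice, and tissue RNA mixes cell types whose markers change with age.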
